A study of Homo sapiens with 6 samples.

Results

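The fatty acid desaturases and elongases studied here are 10 genes, 4 desaturases (SCD, FADS1, FADS2 and FADS3) and 6 elongases (ELOVL1, ELOVL2, ELOVL4, ELOVL5, ELOVL6 and ELOVL7), taken by their symbols from the 32943 genes of the deposited count table. All 10 passed the filter on low counts that left 17747 genes for testing. RNA was sequenced from AGS cells, labelled as a human gastric cancer line, after lipid transfection with a control plasmid (labelled NC, 3 libraries) or with a pcDNA3.1 plasmid that carries Flag-tagged IGF2BP3 (labelled oeIGF2BP3, 3 libraries). Both groups share the cell line, the medium with serum and the harvest at 48 h after transfection. IGF2BP3 is an RNA-binding protein that is known to act on the stability and translation of the mRNAs it binds.

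Desaturases and elongases are membrane enzymes of the endoplasmic reticulum that reshape fatty acids after palmitate has been made or taken up. A desaturase puts a double bond into the acyl chain, with electrons that reach it through cytochrome b5, and an elongase catalyses the first and slowest step of a cycle that lengthens the chain by a pair of carbons. SCD makes the monounsaturated oleate and palmitoleate. FADS2, ELOVL5, FADS1 and ELOVL2 act one after the other on dietary polyunsaturated fatty acids on the way to arachidonic and docosahexaenoic acid. SREBP transcription factors, helped by NF-Y, and liver X receptors are known to switch on several of these genes, in the liver above all.

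The promoter letters of 3 members are shown because SCD and FADS3 were lower and ELOVL4 was higher with IGF2BP3 while all 3 windows hold CCAAT, the NF-Y box. The sequences are from RefSeq (GRCh38.p14), read 5′ to 3′ on the gene's strand, and only the stretch before the RefSeq start and outside every GENCODE exon is printed. Capitals mark CCAAT or its reverse complement and, in ELOVL4, also CACGTG, the E-box. The stretches are chr10:100346983-100347123 on the plus strand for SCD, chr11:61891546-61891795 on the minus strand for FADS3 and chr6:79947581-79947803 on the minus strand for ELOVL4.
SCD: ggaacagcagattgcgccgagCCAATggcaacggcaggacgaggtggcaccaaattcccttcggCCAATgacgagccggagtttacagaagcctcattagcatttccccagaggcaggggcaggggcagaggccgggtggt
FADS3: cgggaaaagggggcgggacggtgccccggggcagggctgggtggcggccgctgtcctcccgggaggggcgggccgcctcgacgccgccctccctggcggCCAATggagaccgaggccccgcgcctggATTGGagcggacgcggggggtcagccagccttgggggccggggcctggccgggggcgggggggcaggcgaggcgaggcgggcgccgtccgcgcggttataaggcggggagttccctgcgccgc
ELOVL4: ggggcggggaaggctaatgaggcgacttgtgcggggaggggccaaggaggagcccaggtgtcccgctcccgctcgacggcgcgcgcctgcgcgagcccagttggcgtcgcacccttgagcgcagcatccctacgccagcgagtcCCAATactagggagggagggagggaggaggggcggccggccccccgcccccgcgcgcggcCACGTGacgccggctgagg

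Windows of 300 bases, 250 before and 50 after a RefSeq start, were searched on both strands for 5 motifs, and all 10 members had a window. CCAAT was in a window of 6 members, SCD, FADS2, FADS3, ELOVL1, ELOVL4 and ELOVL5, and in 34.6% of all 35116 windows. Of these 6, 3 were lower with IGF2BP3, 2 were called higher and ELOVL1 did not pass the test. CACGTG was in the windows of ELOVL4 and ELOVL5 and in 7.26% of all windows. Both were called higher, as were 18.5% of all genes tested, ELOVL5 in 10 of 18 alternatives only. The members were chosen with results known, and 2 genes cannot link a motif to a direction. The sterol regulatory element written as TCACNCCAC was in 0 of the members' windows and in 1.13% of all windows. The GC box GGGCGG was in a window of 9 members against 45.0% of all windows, and TATAAA in 0 against 11.5%. Matches of different motifs in the printed stretches shared no bases. A match describes letters and is no evidence that a factor binds there.

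The libraries held 33555366 to 37633587 counts, and IGF2BP3 itself was at 90.6, 102 and 100.2 CPM (counts scaled to library size, with TMM factors) in controls and 511, 573 and 664 CPM after transfection of its plasmid, a 5.97-fold higher mean (log2 fold change 2.58 ± 0.08, SE; edgeR adjusted p = 1.278e-08). Control replicate 1 and overexpression replicate 3 stood apart from the other libraries of their groups, with a chi-square per gene of 8.74 and 9.30 against the other controls (2.04 between those) and of 7.58 and 7.99 against the other overexpression libraries (2.48 between those). Gastric markers were near 0 in both groups: of 8, a list added after other values had been seen, 2 could be tested, and the list's summed level was 4.24 to 5.85 CPM in controls and 1.53 to 1.79 CPM with IGF2BP3. PGC, which made up most of that sum in controls, fell (−1.90 ± 0.19, edgeR adjusted p = 1.692e-05), and TFF1 did not pass. Markers that define hepatocytes differed widely in level. ALB was abundant, at 1459 to 1546 CPM in controls and 713 to 799 CPM with IGF2BP3. FGB, FGA and FGG had control means of 998, 630 and 369 CPM. APOA2, SERPINA1 and TTR were at 53.8, 33.4 and 11.0 CPM in controls. APOC3, AHSG and APOA1 were low, at 3.78, 3.49 and 2.42 CPM. All 10 of these markers were lower with IGF2BP3, and their sum went from 3549 to 3714 CPM down to 2296 to 2557 CPM. Epithelial markers, 2 of 5 lower, summed to 9782 to 10255 and 8865 to 10240.1 CPM. The 7 fibroblast markers, 4 of 6 tested ones lower, summed to 211 to 221 and 121 to 135 CPM, of which LUM made up most. Of the blood cell markers 1 could be tested and was lower, and of the neural markers 2, of which neither passed. Among adipocyte markers ADIPOQ was at 0 in 5 of the 6 libraries, 1 of 3 tested was lower (PLIN4, −1.06 ± 0.23, edgeR adjusted p = 0.0037), and the list summed to 4.24 to 5.62 and 3.44 to 3.77 CPM. The share of counts from the mitochondrial genome was 6.15 to 6.54% and 5.03 to 5.28%. The hepatocyte sum, the fibroblast sum and the mitochondrial share were lower with IGF2BP3 without overlap, while the epithelial sums overlapped. The part of these values in the results was not tested. In bulk RNA, fewer cells that express a gene and less of its RNA per cell cannot be told apart.

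After IGF2BP3 overexpression all 4 desaturase genes were lower, and the 6 elongase genes were spread over both directions. Of the 10 members 5 fell (SCD, FADS1, FADS2, FADS3 and ELOVL2), 2 rose (ELOVL4 and ELOVL5) and 3 did not pass the test (ELOVL1, ELOVL6 and ELOVL7), by edgeR's quasi-likelihood test at an adjusted p under 0.05. Only ELOVL4 rose without control replicate 1, without overexpression replicate 1, 2 or 3, under upper quartile scaling and with limma on FPKM. Over all genes tested 37.7% passed, 19.2% lower and 18.5% higher (3410 and 3288 genes). Upper quartile scaling gave 3949 lower and 2577 higher, and limma on log2(FPKM + 1) gave 2453 lower and 3416 higher. The median log2 fold change was −0.54 over the 4 desaturases, 0.09 over the 6 elongases and −0.01 over all genes. The middle 50% of all genes tested lay between log2 fold changes of −0.27 and 0.19, and the 4 desaturases were all below that range. CPM of the groups did not overlap for 9 of the 10 members, against 50.6% of all genes. The members were proposed with results of these data in view, so the counts describe them and are not independent evidence of a direction.

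**Figure D1:**
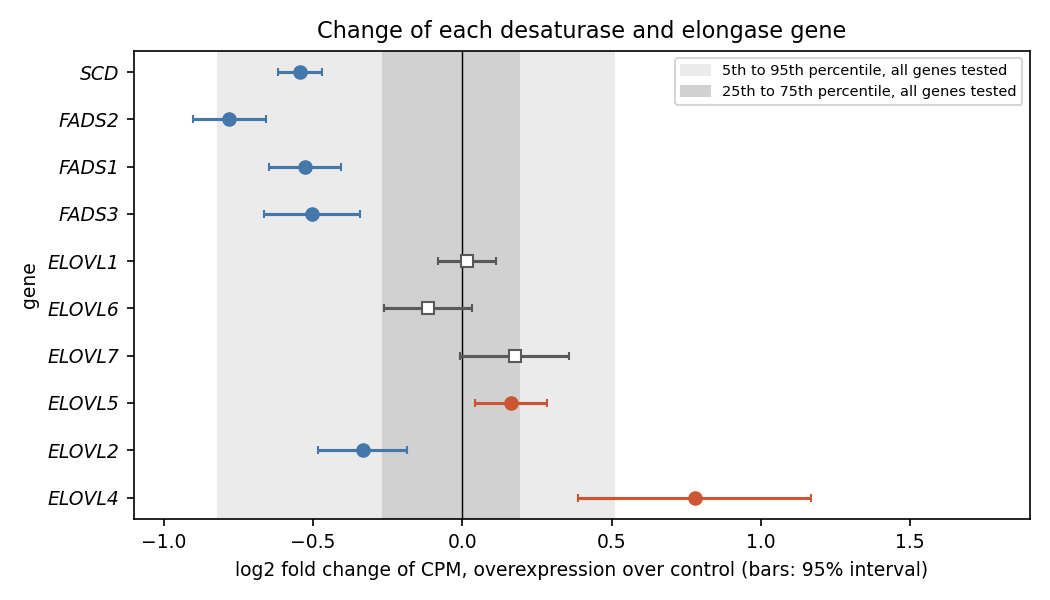
Log2 fold change of CPM (overexpression over control, n = 3 libraries each) for each member, with 95% intervals. Blue points fell, orange points rose and open squares did not pass (edgeR adjusted p under 0.05); the grey bands give the spread of all genes tested. The 4 desaturases lie at −0.50 or below, and the elongases run from −0.33 to 0.78.

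SCD (ENSG00000099194.6, GRCh38 chromosome 10, 100347124 to 100364834, plus strand) encodes stearoyl-CoA desaturase, the enzyme that makes oleate and so sets much of the fluidity of membranes. Control libraries held 1023, 1043 and 1060.2 CPM of it, and those with IGF2BP3 held 727, 716 and 703 CPM. The groups lay far apart beside the spread within each. SCD fell by 0.54 ± 0.03 on the log2 scale (edgeR adjusted p = 9.887e-07), and its mean level dropped by 31.4%. In absolute terms SCD dropped by 327 CPM, the largest change of the 10 members.

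FADS2 (ENSG00000134824.14, chromosome 11, 61792980 to 61867354, plus strand) encodes the desaturase that takes the first, rate-limiting step on polyunsaturated fatty acids. Its levels were 412, 378 and 395 CPM in controls and 245, 235 and 210.3 CPM with IGF2BP3, and the lowest control lay well above the highest overexpression library. This was the largest relative fall of the 10 members (log2 fold change −0.78 ± 0.06, edgeR adjusted p = 2.294e-06). The mean dropped by 41.8%, and 5.59% of all genes tested had a lower fold change. FADS1 (ENSG00000149485.19, chromosome 11, 61799625 to 61829318, minus strand), whose product takes the later desaturation step that yields arachidonic acid, was at 189.9, 169 and 176 CPM and at 132, 119 and 121 CPM. It fell by 0.53 ± 0.06 on the log2 scale (edgeR adjusted p = 2.325e-05). FADS3 (ENSG00000221968.9, chromosome 11, 61873519 to 61892051, minus strand) is the third gene of the cluster and is linked to the desaturation of sphingoid bases. It was at 40.2, 37.5 and 39.7 CPM and at 29.1, 29.2 and 24.5 CPM, a log2 fold change of −0.50 ± 0.07 (edgeR adjusted p = 2.407e-04).

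In GENCODE release 29 FADS2 starts at 61792980, so that FADS1 lies inside it on the opposite strand. By the RefSeq starts of the promoter windows, 61816203 and 61816404 for FADS2 and 61817003 for FADS1, FADS1 does not lie inside FADS2. The GENCODE genes overlap over 29694 bases. Of these, 490 are exonic in both, 4.79% of the exon bases of FADS1 and 4.44% of those of FADS2. The kit marks the strand, but whether the counting used it is not stated, so reads from these bases may be shared between the genes. FADS2 exons also overlap those of FEN1 on the same strand. The 3′ end of FADS3, which is read from the minus strand, lies 6165 bases beyond the end of FADS2, and its exons overlap no other gene's. Its fall therefore rests on no shared bases, and it was close in size to that of FADS1.

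ELOVL6, which lengthens palmitate to stearate and so feeds SCD, was at 28.4, 28.4 and 29.4 CPM in controls and at 24.3, 27.8 and 27.5 CPM with IGF2BP3. The groups did not overlap on this scale, yet the difference did not pass (log2 fold change −0.12 ± 0.07, edgeR adjusted p = 0.20, 95% interval −0.26 to 0.03). On the authors' FPKM (fragments per kilobase, scaled to depth) the groups overlapped, at 3.17 to 3.42 and 2.85 to 3.32. The gene that makes the substrate of SCD thus had an interval that does not reach the fall of SCD.

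ELOVL1 and ELOVL7 lengthen saturated and monounsaturated acyl chains to very long ones. ELOVL1, the most abundant elongase, was at 173, 165 and 178 CPM and at 172, 179 and 171 CPM, with overlapping groups (log2 fold change 0.02 ± 0.04, edgeR adjusted p = 0.81, 95% interval −0.08 to 0.11). ELOVL7 was at 20.9, 23.8 and 23.5 CPM and at 24.1, 24.2 and 28.7 CPM. Its groups did not overlap, but they were separated by little beside the spread (log2 fold change 0.17 ± 0.08, edgeR adjusted p = 0.12, 95% interval −0.01 to 0.36).

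The 2 elongases of the polyunsaturated route went in opposite directions. ELOVL5, which acts between FADS2 and FADS1, was at 125, 140.5 and 143 CPM in controls and at 150.03, 148 and 159 CPM with IGF2BP3. It rose by a log2 fold change of 0.16 ± 0.06 (edgeR adjusted p = 0.036). Control replicate 1 lay lowest, and the call ended without that library (0.10, adjusted p = 0.11), without any single overexpression library (adjusted p = 0.053 to 0.095), without control replicate 1 and overexpression replicate 3 together (0.07, adjusted p = 0.083), under upper quartile scaling (0.12, adjusted p = 0.096) and with limma on log2(FPKM + 1) (0.21, adjusted p = 0.053) and on log2(FPKM + 0.1) (0.22, adjusted p = 0.0501). With upper quartile scaling 1 member rose and 5 fell. ELOVL2, which acts later on longer polyunsaturated chains, was at 23.0, 23.9 and 26.0 CPM and at 19.0, 19.2 and 19.6 CPM. It fell by 0.33 ± 0.07 on the log2 scale (edgeR adjusted p = 0.0023).

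ELOVL4 makes the ultra-long chains known from retina, skin and brain, and was the least abundant member. It had 86, 124 and 133 counts in controls and 193, 172 and 253 counts with IGF2BP3, or 2.42, 3.70 and 3.69 CPM against 5.17, 4.84 and 6.79 CPM. It rose with a log2 fold change of 0.78 ± 0.18 (edgeR adjusted p = 0.0049, 95% interval 0.39 to 1.17), and 98.6% of all genes tested had a lower fold change. Its lowest control was control replicate 1 and its highest library overexpression replicate 3. Without these libraries together the log2 fold change was 0.44 (adjusted p = 0.014).

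Levels of different genes were compared on the authors' FPKM, a scale per length. The length used is not stated, but CPM relative to FPKM followed the exon bases of all GENCODE transcripts joined. For FADS2 these are 11026 bases, and its longest transcript has 5073. For FADS1 the lengths are 10230 and 4525, and for ELOVL5 3813 and 3081. The order below holds on this FPKM only and was not repeated with another length. In controls the order was SCD (166 ± 6.70, SD, n = 3), ELOVL1 (57.2 ± 2.63), FADS2 (31.2 ± 0.952), ELOVL5 (29.8 ± 2.78), FADS1 (14.5 ± 0.600), FADS3 (5.18 ± 0.175), ELOVL2 (5.08 ± 0.427), ELOVL7 (4.25 ± 0.384), ELOVL6 (3.29 ± 0.125) and ELOVL4 (0.907 ± 0.222). FADS2 and ELOVL5 overlapped between libraries, as did FADS3 and ELOVL2, so on this scale neither pair has an order beyond the spread. With IGF2BP3 no pair of neighbours overlapped. ELOVL5 (34.5 ± 1.81) then stood above FADS2 (18.8 ± 1.17), and ELOVL7 (4.97 ± 0.595) above ELOVL2 (4.18 ± 0.125) and FADS3 (3.78 ± 0.315).

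**Figure D2:**
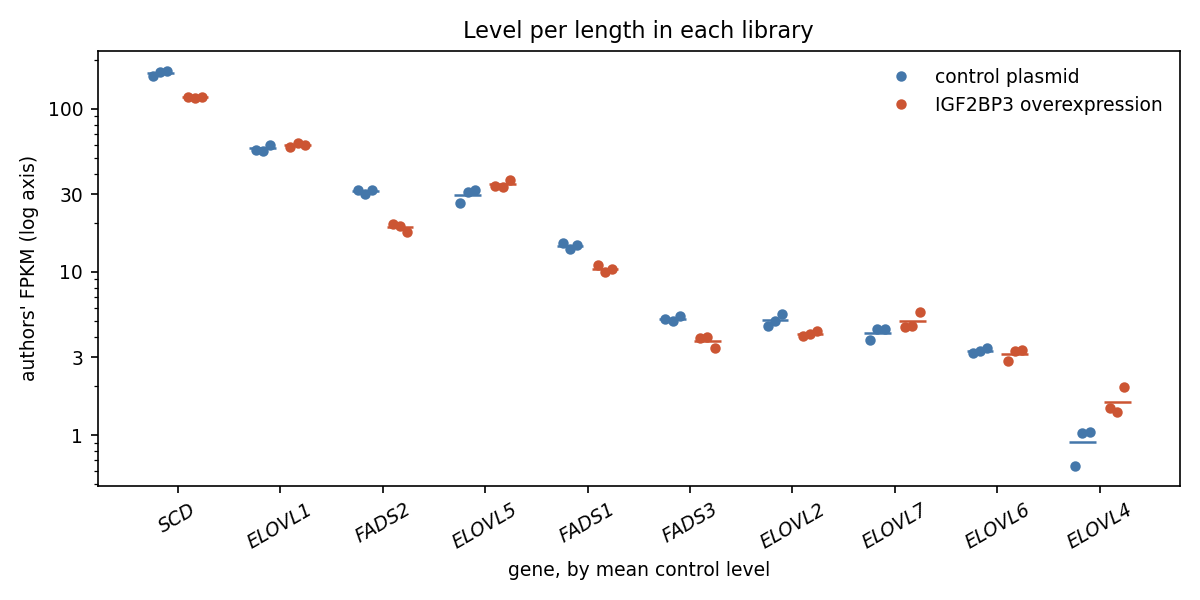
The authors' FPKM of each member in each library on a log axis, ordered by the control mean; points are libraries (3 per group) and bars are means. SCD stays highest in both groups, at 158 to 171 and 117 to 118 FPKM, and ELOVL5 lies above FADS2 with IGF2BP3 while their ranges overlap in controls.

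Summed over the 4 desaturases, the authors' FPKM was 210.2, 216 and 223 in the control libraries and 153, 150.2 and 149 with IGF2BP3. For the 6 elongases the sum was 95.1, 100 and 106 against 105, 108 and 112, with 1 control above 1 overexpression library. Desaturase RNA was therefore 2.16 ± 0.057 times elongase RNA in controls and 1.39 ± 0.059 times with IGF2BP3 (SD, n = 3), with no overlap (two-sided exact permutation p = 0.1, the smallest that 3 against 3 libraries allow). ELOVL1 weighs most in the elongase sum. The size of these ratios holds on FPKM only, as it depends on the lengths that FPKM divides by. The sums also carry the scaling of FPKM between libraries, which differs from that of CPM. The median log2 fold change of all genes was 0.02 on log2(FPKM + 1) and −0.01 on CPM, and that of SCD −0.49 and −0.54.

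The shares below depend on the length that FPKM divides by. SCD held 75.3 to 77.3% of desaturase FPKM in controls and 77.3 to 79.0% with IGF2BP3, with a slight overlap. FADS2 held 13.9 to 15.1% and then 11.7 to 12.9%, with no overlap (exact permutation p = 0.1, adjusted over 10 shares 0.25). Among the elongases ELOVL1 held 57.0 ± 1.96% and 55.3 ± 1.61%, and ELOVL5 29.6 ± 1.50% and 31.8 ± 0.961%, and for both the groups overlapped. ELOVL6 held 3.21 to 3.33% and 2.71 to 3.03% without overlap. The share of ELOVL2 was 4.92 to 5.20% and 3.83 to 3.88%, and that of ELOVL4 0.684 to 1.03% and 1.28 to 1.77%, each without overlap and with the same p. Only p-values of 0.1 or more can arise in this design, so no share could pass a threshold of 0.05.

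**Figure D3:**
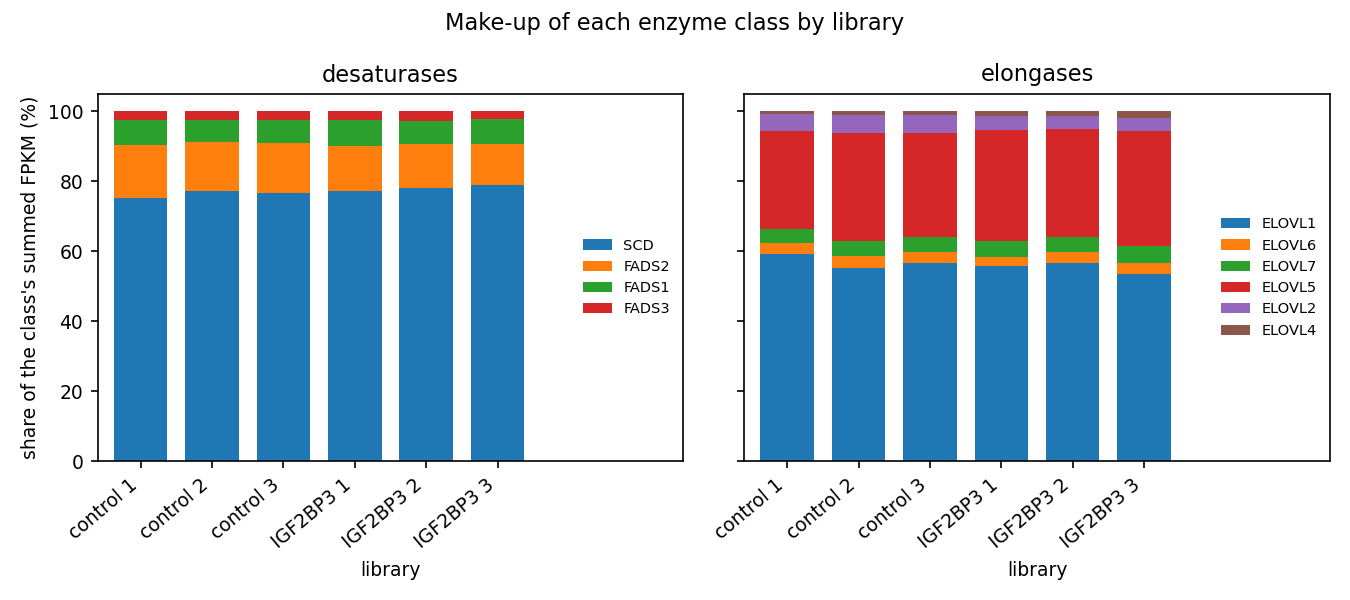
Share of each gene in the summed FPKM of its class (percent), one bar per library, for the desaturases (left) and the elongases (right). SCD fills 75.3 to 79.0% of the desaturase bars in every library, and ELOVL1 and ELOVL5 together most of the elongase bars.

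A ratio of 2 members within a library does not depend on how libraries are scaled to each other. Of 7 such ratios all 7 differed between the groups without overlap (two-sided exact permutation p = 0.1 each, the smallest possible, and 0.1 after adjustment). FADS2 is in 4 of the 7, and 50.6% of all single genes also separated the groups, so the count says nothing particular about the members. The log2 ratio of ELOVL5 to FADS2 moved most, from −1.72, −1.43 and −1.47 in controls to −0.71, −0.67 and −0.41. FADS2 lost ground also to the genes that fell with it: the log2 ratio of FADS1 to FADS2 was higher by 0.25, that of FADS3 to FADS2 by 0.28 and that of SCD to FADS2 by 0.24. SCD lost ground to ELOVL6, with log2 ratios of 5.17, 5.20 and 5.17 in controls and 4.90, 4.69 and 4.68 with IGF2BP3. The ratio of ELOVL1 to ELOVL6 shifted least (0.13), and its overexpression library closest to the controls lay at 2.63 against a highest control of 2.61.

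**Figure D4:**
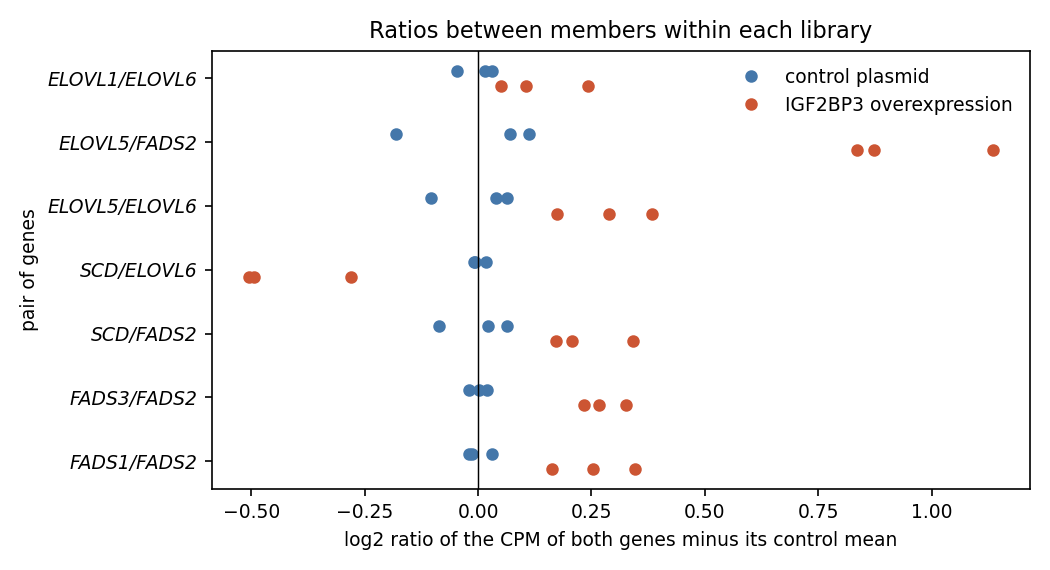
Log2 ratio of the CPM of both genes in each library, minus the mean of the 3 controls; blue points are control and orange points overexpression libraries. The 7 ratios separate the groups, ELOVL5 to FADS2 by 0.95 and ELOVL1 to ELOVL6 by 0.13.

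Genes around these enzymes were described by 11 lists of pathway partners, chosen with earlier results of these data known. Among 109 testable genes of the 125 listed, 44 were called lower and 13 higher by edgeR, which is 40.4% and 11.9% against 19.2% and 18.5% of all genes tested. The count called higher was 7 without control replicate 1, 8 without overexpression replicate 3 and 8 under upper quartile scaling. The count called lower was 32 with limma on log2(FPKM + 1) or log2(FPKM + 0.1). It was 37 to 41 with single libraries left out and 48 under upper quartile scaling. The median log2 fold change over the 109 was −0.13, against −0.01 over all genes. The relatives outside the 10 members stood at low levels or moved little: SCD5, the other stearoyl-CoA desaturase, had 47 counts over all 6 libraries and was not tested, and ELOVL3 (2.00 ± 0.474 and 1.74 ± 0.158 CPM) did not pass. DEGS1, the ceramide desaturase, rose from 82.3 to 92.1 CPM (0.16 ± 0.05, adjusted p = 0.020), a call that ended without control replicate 1 (adjusted p = 0.059) and under upper quartile scaling (0.062).

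Of 5 tested genes for the enzymes that complete each elongation round, 1 fell and 4 did not pass. This 20% lower is near the 19.2% of all genes tested. TECR, the reductase of the last step, was at 142 ± 10.1 CPM in controls and 104 ± 11.2 CPM with IGF2BP3, a fall of −0.45 ± 0.07 in log2 (edgeR adjusted p = 5.853e-04). Of the 6 listed cytochrome b5 and b5 reductase genes, 1 fell, 1 rose and 4 did not pass. Each direction held 16.7%, near the 19.2% lower and 18.5% higher of all genes tested. Which of them serve the desaturases in these cells was not tested. CYB5R3 went from 211 ± 16.9 to 157 ± 15.96 CPM (−0.43 ± 0.07, adjusted p = 7.125e-04). CYB5R4 rose (0.29 ± 0.10, adjusted p = 0.037), and its call ended when control replicate 1 (0.17, adjusted p = 0.082) or 3 (0.053) was left out and without overexpression replicate 1, 2 or 3 (adjusted p = 0.050 to 0.14). It ended also under upper quartile scaling (adjusted p = 0.065), with limma on log2(FPKM + 1) (0.085) and log2(FPKM + 0.1) (0.081) and without control replicate 1 and overexpression replicate 3 together (0.10, adjusted p = 0.16).

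Upstream, in the synthesis of palmitate, 6 of 10 tested genes fell and 1 rose (median −0.17). Over all genes tested 19.2% were lower and 18.5% higher. FASN, the fatty acid synthase, was at 347, 329 and 344 CPM in controls and at 252, 266 and 237 CPM with IGF2BP3, without overlap (−0.43 ± 0.05, edgeR adjusted p = 3.236e-05). The mitochondrial citrate carrier gene SLC25A1 fell from 95.98 ± 5.61 to 69.8 ± 9.98 CPM (−0.46 ± 0.09). ACLY, which splits citrate into acetyl-CoA, fell less (187 ± 2.43 to 164 ± 1.63 CPM, −0.18 ± 0.04). Of 17 genes of acyl-CoA synthesis and fatty acid transport 4 fell, 2 rose and 11 did not pass (median −0.09). DBI, the acyl-CoA-binding protein gene, fell from 317 ± 8.41 to 202 ± 18.5 CPM (−0.65 ± 0.06), and FABP1, the liver and gut fatty acid-binding protein gene, from 11.4 ± 1.95 to 3.67 ± 0.621 CPM (−1.64 ± 0.15). SLC27A4, a fatty acid transport protein gene, rose from 31.5 ± 1.12 to 39.0 ± 0.506 CPM (0.31 ± 0.06, adjusted p = 9.495e-04).

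Downstream, of 20 tested genes that place acyl chains in glycerolipids and sterol esters 8 fell, 3 rose and 9 did not pass (median −0.10). The shares over all genes tested, here and for the next lists, were 19.2% lower and 18.5% higher. LPCAT3, which puts polyunsaturated chains into phospholipids, fell from 58.9 ± 1.51 to 41.9 ± 1.82 CPM (−0.49 ± 0.05, edgeR adjusted p = 2.941e-05). AGPAT1 fell from 66.1 ± 3.49 to 47.8 ± 3.23 CPM (−0.47 ± 0.06), and GPAM, at a low level, by 2.16 ± 0.20 on the log2 scale. Among 8 genes of ceramide synthesis 4 fell and 1 rose (median −0.21). CERS2, the ceramide synthase for very long chains and a user of the products of ELOVL1, fell from 323 ± 12.6 to 246 ± 8.63 CPM (−0.39 ± 0.04, adjusted p = 3.739e-05), while ELOVL1 did not pass. CERS4 (−0.54 ± 0.09) and, at 1.73 and 0.852 CPM, SPTLC3 (−1.02 ± 0.23) also fell. Peroxisomal chain shortening, which completes docosahexaenoic acid after ELOVL2 and FADS2, had 6 of 10 genes lower and 0 higher (median −0.46), against the same shares. HSD17B4 fell from 93.97 ± 4.16 to 63.6 ± 1.80 CPM (−0.56 ± 0.05), ACAA1 from 195 ± 5.12 to 145 ± 9.23 CPM (−0.42 ± 0.05) and SCP2 from 138 ± 15.4 to 98.7 ± 2.98 CPM (−0.49 ± 0.07).

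**Figure D5:**
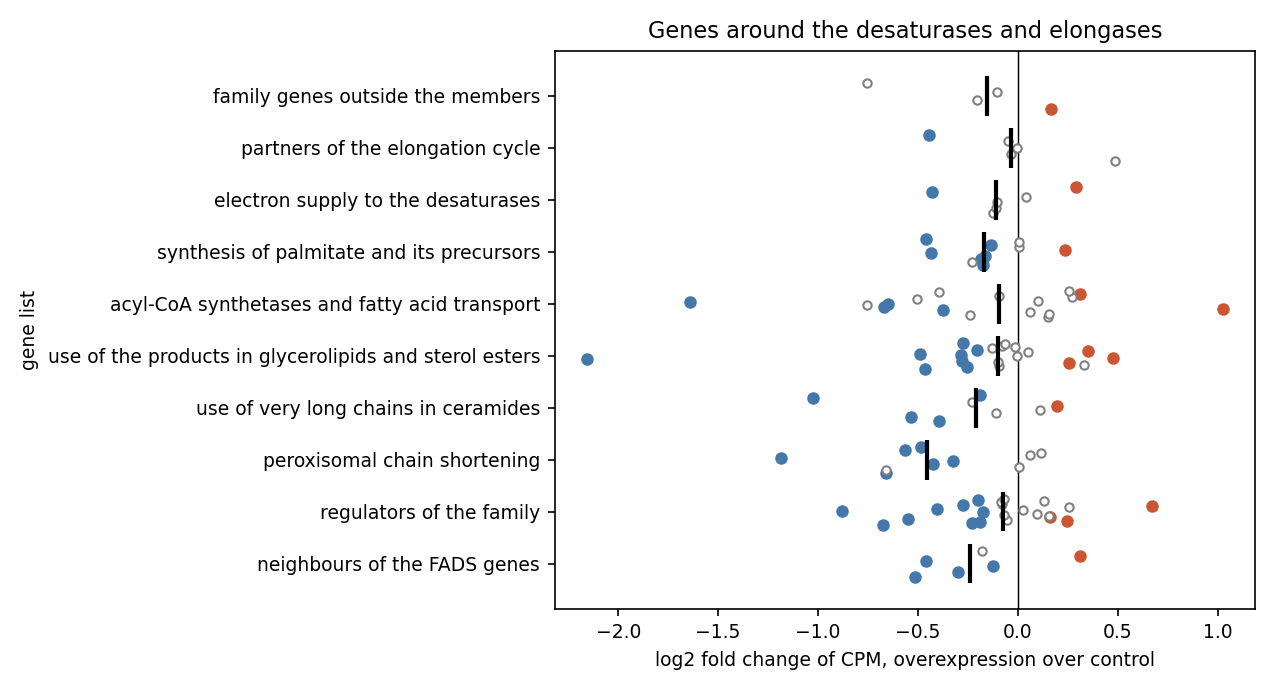
Log2 fold change of each tested gene in 10 of the lists of partners; blue points fell, orange points rose, open points did not pass (edgeR adjusted p under 0.05) and black bars are list medians. The 10 list medians lie between −0.46 and −0.03, and most lists hold genes on both sides of 0.

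Of 22 genes known to regulate the family 9 fell, 3 rose and 10 did not pass (median −0.07). That is 40.9% lower and 13.6% higher, against 19.2% and 18.5% of all genes tested. SREBF1, which encodes the SREBP that favours fatty acid genes, was at 154, 157 and 154 CPM and at 135, 141 and 129 CPM (−0.20 ± 0.05, edgeR adjusted p = 0.0049). SREBF2, which favours cholesterol genes, did not pass (229.9 ± 5.01 and 219 ± 8.85 CPM, −0.07 ± 0.04, adjusted p = 0.22). INSIG1, which holds SREBPs back and is itself one of their targets, was at 68.5, 69.0 and 68.1 CPM and at 44.8, 43.5 and 40.5 CPM (−0.67 ± 0.05, adjusted p = 3.849e-06). PPARA, a nuclear receptor of fatty acids, fell from 7.94 ± 0.326 to 4.32 ± 0.612 CPM (−0.88 ± 0.12), and MLXIPL, the carbohydrate-responsive factor ChREBP, from 10.6 ± 0.716 to 7.23 ± 0.406 CPM (−0.55 ± 0.09). The higher ones, picked out with their values known, were PPARGC1B (0.67 ± 0.18), MBTPS2 (0.25 ± 0.07) and NFYA (0.16 ± 0.05). The call of PPARGC1B ended without overexpression replicate 3 (0.52, adjusted p = 0.053), and that of NFYA with control replicate 1 left out (adjusted p = 0.11) or 3 (0.083) and without overexpression replicate 2 (0.075) or 3 (0.083). It ended also under upper quartile scaling for NFYA (adjusted p = 0.093), with limma on log2(FPKM + 1) for PPARGC1B (0.0501) and without control replicate 1 and overexpression replicate 3 together for both (0.10 and 0.052).

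The genes beside the members were looked at because SCD and the FADS cluster share their surroundings with other transcribed genes. The long noncoding RNA OLMALINC starts 8679 bases beyond SCD on the same strand of chromosome 10. It was at 27.9, 26.3 and 25.8 CPM in controls and at 17.9, 16.7 and 14.6 CPM with IGF2BP3, a log2 fold change of −0.70 ± 0.08 (edgeR adjusted p = 4.378e-05), so it was lower along with SCD. Around the FADS genes 4 of 6 tested neighbours fell, 1 rose and 1 did not pass, against 19.2% lower and 18.5% higher of all genes tested. MYRF, a transcription factor gene 4462 bases before the GENCODE start of FADS2, fell from 94.9 ± 3.11 to 69.1 ± 1.80 CPM (−0.46 ± 0.05). The RefSeq starts of FADS2 used for the promoter windows lie farther along, at 61816203 and 61816404. MYRF, TMEM258 and FEN1 all lie before them. FEN1, a DNA flap endonuclease gene that overlaps the GENCODE exons of FADS2 on the same strand, fell from 241 ± 6.89 to 195 ± 5.02 CPM (−0.30 ± 0.04). RAB3IL1, 5250 bases from FADS3, rose from 12.9 ± 0.797 to 16.03 ± 0.168 CPM (0.31 ± 0.07, adjusted p = 0.0061). TMEM258, a subunit gene of the oligosaccharyltransferase 178 bases from the GENCODE start of FADS2, did not pass (−0.18 ± 0.07, edgeR adjusted p = 0.074). It passed under upper quartile scaling (adjusted p = 0.042), with no filter on low counts (0.0079) and with the replicate number as a block (0.019).

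BEST1 and FTH1, farther out, overlap each other's exons on opposite strands and are uncertain, as are MYRF, TMEM258 and FEN1 where they overlap. BEST1 fell by 0.51 ± 0.11 on the log2 scale, by 0.34 without control replicate 1 and by 0.28 without it and overexpression replicate 3 together. The ferritin heavy chain gene FTH1 fell by 0.12 ± 0.04 (adjusted p = 0.046) and no longer passed without control replicate 1 (adjusted p = 0.12), 2 (0.082) or 3 (0.072), without overexpression replicate 1 (0.057) or 3 (0.081), with DESeq2 (0.080), with limma on log2(FPKM + 1) (0.24) and log2(FPKM + 0.1) (0.25) and without control replicate 1 and overexpression replicate 3 together (0.074). Of the tested neighbours only RAB3IL1 thus had a positive log2 fold change (0.31), and the 3 FADS genes lay between −0.50 and −0.78.

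For 3 members the genes with the nearest profile over the 6 libraries were sought among 9561 others at a mean of 10 CPM or more. The measure was the root mean square distance of log2 CPM after centring each gene on its mean, and it describes these libraries only. Among the 3 nearest to SCD were PROS1 (distance 0.018) and PCGF5 (0.023), with log2 fold changes of −0.52 and −0.56. FADS2 had KLC4 (0.025), ERBB3 (0.029) and HSPG2 (0.035), with log2 fold changes of −0.75, −0.78 and −0.72. For ELOVL5 they were UBE2V2 (0.0085), ZFAND5 (0.011) and GTF2H3 (0.015), with 0.17, 0.15 and 0.16, of which GTF2H3 did not pass (adjusted p = 0.060). Like ELOVL5, UBE2V2 and ZFAND5 no longer passed without control replicate 1 (adjusted p = 0.084 and 0.11), and their calls ended in 6 and 7 of 18 alternatives. No other member of the family was among the 3 nearest genes of SCD, FADS2 or ELOVL5.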

How the data were processed

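Polyadenylated RNA of 6 libraries was made with a strand-marking kit from 1 μg of total RNA each, per the labels' protocols. The submitters' processing notes name GRCh38, HISAT2 and DESeq2; the counter, its strand setting and its annotation were not given in the sources used here. Whole-number counts for each gene were deposited by the authors beside FPKM rounded to 2 decimals, judged by the names and values of the deposited tables. Libraries were grouped by title; the labels do not say whether replicates were separate cultures, so p-values measure only how these libraries vary, and that spread may be technical.

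Counts were tested with edgeR 4.0.16 (R 4.3.3): filterByExpr (minimum count 10, total 15), TMM scaling, quasi-likelihood F test, Benjamini-Hochberg adjustment over 17747 genes, threshold 0.05. The fit was tested on simulated counts in which 200 genes were changed, in both directions. In the data 6698 genes were called, so the simulation does not show how the fit behaves under change that wide. Standard errors come from the fold change and F statistic, and the ± after a level is an SD. Shares, sums and ratios were compared by exact permutation over libraries. Alternatives were other scalings and filters, the replicate block, DESeq2 1.42.0, limma 3.58.1 (voom, and log2 of FPKM plus 1 or 0.1) and libraries left out. Positions are from GENCODE release 29. The counts of no 2 libraries agreed within sampling noise (chi-square per gene 2.04 or more).

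Members and gene lists were chosen with earlier results of these data known. Named are all members, the 3 genes of smallest p past the threshold in each list, the FADS neighbours, SREBF1, SREBF2, INSIG1, FASN, SCD5 and the nearest profiles, of which 1 gene is not reported here. ELOVL3, PPARGC1B, MBTPS2, NFYA and the markers were named outside this rule, with their values known.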

Additional observations from a re-analysis of the deposited data

How the results depend on the processing

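Over 18 alternatives SCD, FADS1, FADS2, FADS3 and ELOVL2 stayed lower and past the threshold in all 18, with log2 fold changes of −0.59 to −0.49, −0.57 to −0.44, −0.82 to −0.69, −0.55 to −0.37 and −0.39 to −0.23. ELOVL4 stayed higher and past it in all 18 (0.44 to 0.88). ELOVL5 stayed higher in all 18 and past the threshold in 10. ELOVL6 and ELOVL7 passed in 0 of 18 and kept their direction. ELOVL1 passed in 0 and turned negative under upper quartile scaling (−0.029); with single libraries left out it ran from −0.013 (control replicate 2) to 0.041 (control replicate 3), and was −0.0036 without overexpression replicate 2. The count of members that rose was 1 in place of 2 under upper quartile scaling, with limma on log2(FPKM + 1) and log2(FPKM + 0.1) and without control replicate 1 and overexpression replicate 3 together, and 1 to 2 with single libraries left out. The count of pathway genes that rose was 8 in place of 13 under upper quartile scaling and 7 to 12 with single libraries left out. Those that fell were 32 in place of 44 with limma on either log2 FPKM scale and 37 to 41 with single libraries left out. The cause was not tested.

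Same-numbered libraries had correlations of deviations of 0.089, −0.043 and 0.082, and differently numbered ones of −0.139 to 0.084. With 3 libraries per group these values cannot decide whether the numbers of the titles pair the libraries. With the replicate number as a block 6848 genes were called in place of 6698, and SCD had an adjusted p of 2.101e-08; the members called were 7 in both. The 7 ratios and 10 shares kept their direction with each library left out, with FPKM for the ratios and with CPM per length of the longest GENCODE transcript for the shares. The size of the shifts moved with the length. On FPKM the shares of SCD and FADS2 changed by 1.61 and −1.94 percentage points, and per longest transcript by 2.23 and −2.96. ELOVL4, with 86 to 253 counts, is the member that depth limits most.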
